A study of Homo sapiens with 12 samples.

Results

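U1 small nuclear RNA was described here in RNA that was recovered with tagged Arid5a from a human kidney cell line. Its 4 full-length genes, RNU1-1, RNU1-2, RNU1-3 and RNU1-4, were taken by Ensembl identifier from the 60708 features of the deposited tables. The study asked which transcripts Arid5a, an RNA-binding protein, takes down with it. HK2 is an established kidney epithelial line. All cells carried a plasmid for FLAG-hArid5a (10 µg), including those of the control precipitates, so no group lacked the tagged protein. Stimulation lasted 3 h and used IL-17, an inflammatory cytokine, at 200 ng/mL, with medium as its control. Anti-FLAG antibody pulled down the tagged protein, and mouse IgG1 served to measure background. This gave 4 groups of 3 libraries, called IgG medium, FLAG medium, IgG IL-17 and FLAG IL-17. No untransfected cells and no input RNA were analysed here. The labels do not state that replicates were separate cultures. The p-values therefore reflect the spread between these libraries alone, and that spread may be technical.

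U1 RNA is the core of the U1 small nuclear ribonucleoprotein. It pairs with the splice site at the start of an intron, together with proteins specific to U1 and a ring of Sm proteins. It also protects nascent transcripts from early cleavage and polyadenylation. RNA polymerase II makes it from short genes, after which it passes through the cytoplasm for assembly and returns to the nucleus, where it is among the most abundant RNAs. Mature U1 has no poly(A) tail, whereas the SMART-Seq v4 chemistry used for these libraries primes cDNA on poly(A).

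In RefSeq (GRCh38.p14, the build that the submitters' processing notes name as GRCh38) the 4 genes lie on chromosome 1 within 382022 bases. RNU1-1 (ENSG00000206652.1) spans 16514122 to 16514285. RNU1-3 (ENSG00000207513.1) spans 16666785 to 16666948, and RNU1-4 (ENSG00000207389.1) spans 16740516 to 16740679. RNU1-2 (ENSG00000207005.1) spans 16895980 to 16896143. Each is a 164-base snRNA gene, and none overlaps another RefSeq gene. In the deposited data the ratio of estimated count to TPM, which follows the length that the quantification assigned, differed between the 4 genes by at most 0.021% within a library, over the 27 values with 20 or more counts. RefSeq also lists 17 U1 variant genes (RNVU1) of the snRNA class and 123 U1 pseudogenes. The deposited features carry no symbols and the reference table paired 0 of them, so variants, pseudogenes, U1 proteins and kidney cell markers were not assigned values.

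The 4 genes were chosen by measured values: the IL-17 difference of RNU1-4 in IgG libraries and that of RNU1-1 in FLAG libraries were known when they were proposed. All differences between IL-17 and medium, and the change of the FLAG over IgG difference between treatments, are therefore given as descriptions without a test. FLAG over IgG within a treatment was tested on the summed count. Those tests use the same libraries, and the sum includes RNU1-4 and RNU1-1, so they are not independent of how the genes were chosen.

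Libraries differed in depth and content. Total estimated counts ran from 746911 to 17723100. Scaled down to 740000 counts each, 3 libraries were expected to hold more features than the rest: 32405 in IgG IL-17 replicate 1, 25893 in IgG medium replicate 2 and 25379 in FLAG medium replicate 1. The other 9 were expected to hold 10614 to 21427. IgG medium replicate 1 was the shallowest library. These 4 libraries stood apart, and results that rest on them are given with and without them. Medium libraries reached 7563480 counts at most, and IL-17 libraries held 5365500 or more, so depth moved with treatment; its part in the U1 values was not tested. Without input RNA, the level of U1 in the cells and its recovery in the precipitates cannot be told apart.

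The summed U1 count, scaled to a library total of 1000000 (CPM), covered more than 3 orders of magnitude. In IgG medium, replicates 1, 2 and 3 had 246, 2.698 and 18.1 CPM of U1. In FLAG medium they had 24.2, 9.73 and 1018 CPM. Within both medium groups, therefore, 1 library lay far above the other two. In IgG IL-17 the values were 475, 3389 and 1406 CPM. In FLAG IL-17 they were 1920, 7124 and 3068 CPM, the highest group mean of the series, although IgG IL-17 replicate 2 lay above FLAG IL-17 replicates 1 and 3. The 4 genes together made up 0.712% of all counts in FLAG IL-17 replicate 2, where their sum ranked 12 among features. Variant genes and pseudogenes of U1 are not part of this sum.

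**Figure D1:**
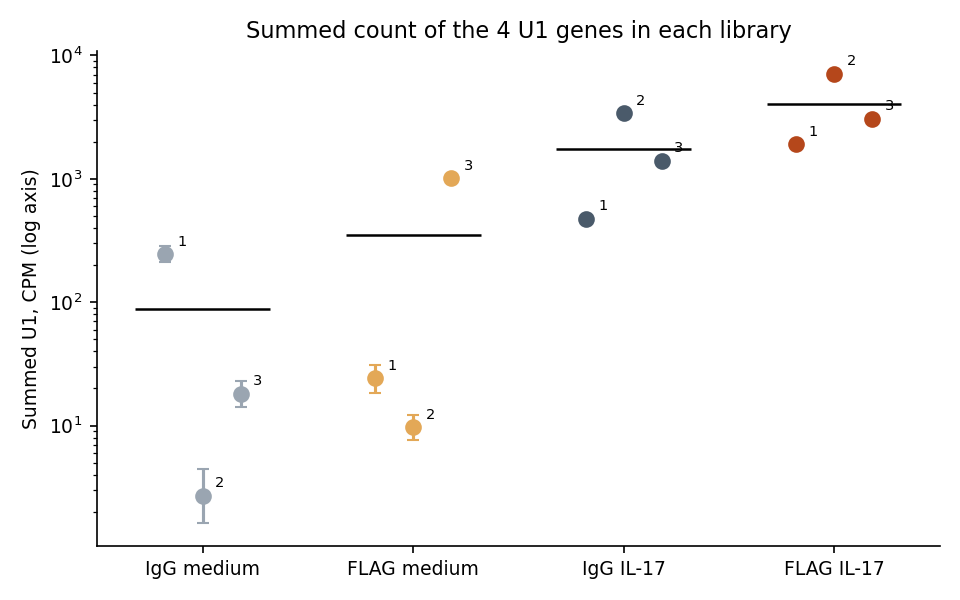
Summed U1 in CPM on a log axis for each library (points, numbered by replicate) in the 4 groups; black lines are group means and bars are exact 95% Poisson intervals. The 6 IL-17 libraries lie at 475 CPM or above, and FLAG medium replicate 3, at 1018 CPM, lies among them.

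Counting error was small beside these gaps. The 16.51 estimated counts of IgG medium replicate 2 give an exact 95% Poisson interval of 1.62 to 4.45 CPM. The 183.53 counts of IgG medium replicate 1 give 212 to 285 CPM, so the medium replicates differed by more than counting error. These intervals cover counting error only, because reads without molecular identifiers are not independent molecules. Group means were 88.8 ± 136 CPM (SD, n = 3) in IgG medium and 351 ± 578 CPM (SD, n = 3) in FLAG medium. They were 1757 ± 1488 CPM (SD, n = 3) in IgG IL-17 and 4037 ± 2734 CPM (SD, n = 3) in FLAG IL-17. Medians kept this order, at 18.1, 24.2, 1406 and 3068 CPM. Each neighbouring pair in the order had overlapping libraries.

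Mean U1 was higher in IL-17 libraries than in medium libraries with both antibodies, in CPM, in TPM and under each scaling tried. In FLAG precipitates all 3 IL-17 libraries exceeded all 3 medium libraries, with a ratio of group means of 11.5. The groups stayed apart under 3 other scalings of the counts (TMM, RLE and upper quartile), and in TPM the gap was narrow, 9076 against 8998. Among all other tested features, 3.29% had IL-17 libraries entirely above medium libraries in FLAG. In IgG precipitates the ratio of means was 19.8, and the groups did not overlap in CPM (475 against 246 at the nearest). They overlapped under TMM, RLE and upper-quartile scaling, where IgG medium replicate 1 came to 388, 456 and 629 against 306, 389 and 362 for IgG IL-17 replicate 1. The background for IgG in CPM was 7.22% of other tested features. Since the members were proposed from these contrasts, nothing is read from either share.

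On the fitted log2 scale, U1 differed between IL-17 and medium by 3.95 in IgG and by 3.83 in FLAG, where the median tested feature differed by 0.18 and -0.29. Single libraries moved these values. The IgG value was 7.68 without IgG medium replicate 1, and the FLAG value was 8.15 without FLAG medium replicate 3. Removing the 4 outlying libraries gave 7.48 in IgG, with 1 IgG medium library left, and 3.27 in FLAG.

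Short features were described beside U1, without a test. Of 23128 tested features with a measurable ratio of count to TPM, 216 had a median ratio at or below that of U1 in the same libraries (within 1%). Their median difference in mean log2(CPM + 1) between IL-17 and medium was 1.19 in IgG and 1.16 in FLAG. Over all other tested features the medians were 0.47 and -0.48. Summed U1 differed by 5.66 and 5.74 on this scale. Of the short features, 27.3% in IgG and 39.8% in FLAG had IL-17 libraries entirely above medium libraries. Over all other tested features the shares were 7.22% and 3.29%. A feature could pass the filter through 1 group alone, so features low in medium could enter through their IL-17 values. The short features were not identified and may include some that share reads with U1. Nothing is therefore read from these shares. The part of feature length in the U1 difference was not tested.

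FLAG precipitates did not differ from IgG precipitates in U1 beyond the spread between libraries. In IL-17, FLAG libraries ran from 1920 to 7124 CPM and IgG libraries from 475 to 3389 CPM, so the groups overlapped, and the ratio of means was 2.30. The fitted log2 difference was 1.33 ± 1.31 (SE), with a 95% interval of -1.37 to 4.02 and an adjusted p of 0.922 in edgeR's quasi-likelihood test. In medium the groups also overlapped and the ratio of means was 3.95. The fitted log2 difference there was 1.44 ± 1.33 (SE), interval -1.29 to 4.18, edgeR adjusted p = 0.975. The mean over both treatments was 1.39 ± 0.934 (SE), interval -0.53 to 3.30, edgeR adjusted p = 0.992. The main fit did not pair libraries by replicate number. By number, FLAG IL-17 lay above IgG IL-17 each time, at 1920 against 475, 7124 against 3389 and 3068 against 1406 CPM. In medium, replicate 1 went the other way, at 24.2 against 246 CPM. The fitted intervals include no difference and also include sizable enrichment, so they do not show that the antibodies recovered equal amounts of U1.

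These tests ran in a table where little passed at all. In each of the 3 comparisons edgeR called 0% of 24037 features, 0 in number. Before adjustment, 1581 features in medium, 675 in IL-17 and 991 for the mean had an edgeR p under 0.05, in either direction. DESeq2 called 137, 9 and 32 of the 23304 features it tested, and limma called 0 in each with either pseudocount. An exact two-sided permutation test of mean log2(CPM + 1), with antibody labels exchanged within treatment, gave a FLAG minus IgG difference of 1.365 and p = 0.34 over 400 arrangements (0.51 after Benjamini-Hochberg adjustment over 3 comparisons). The smallest p it allows is 0.005. Within a treatment, 3 against 3 cannot go below 0.1, and the exact permutation p was 0.6 in medium and 0.3 in IL-17 (0.6 and 0.51 adjusted).

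The direction in medium was not stable. Without FLAG medium replicate 3, the fitted log2 difference in medium was -3.18 and the mean over both treatments was -0.98. Without IgG medium replicate 1 they were 5.18 and 3.27. Removing the 4 libraries that stood apart gave 5.05 in medium, against a single IgG library assumed to vary like the others, and 2.94 for the mean, with edgeR adjusted p of 0.0911 and 0.0893. Over all alternatives the adjusted p ran from 0.0911 to 1 in medium and from 0.0669 to 1 for the mean. The IL-17 value was 0.84 without them. With any 1 library left out, the IL-17 difference stayed above 0, at 0.59 with FLAG IL-17 replicate 2 removed and 2.04 with IgG IL-17 replicate 2 removed as its extremes.

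**Figure D2:**
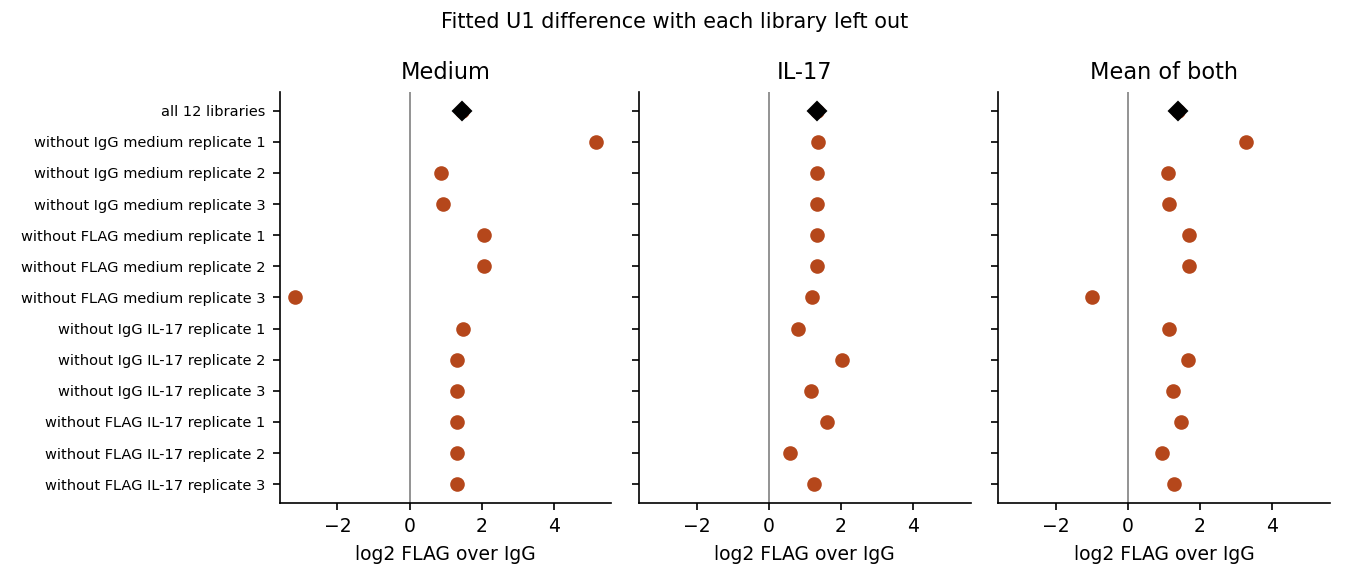
Fitted log2 difference of summed U1, FLAG over IgG, in medium, in IL-17 and averaged, with all 12 libraries (black diamond) and with each library left out (circles); the grey line marks 0. Leaving out FLAG medium replicate 3 takes the medium value to -3.18, and no single library takes the IL-17 value below 0.59.

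The count of each gene depends on how reads were divided. None of the 42 single-gene values above 0 was whole at a tolerance of 0.005, and the other 6 values were 0. The sum over the 4 genes was whole (within 0.02) in 1 of 12 libraries. In the other libraries some reads were therefore not assigned wholly to the 4 genes. Where the rest of those reads went was not examined. Equal values within a library also occurred. In FLAG medium replicate 1, RNU1-3 and RNU1-4 both had 28.78 estimated counts and RNU1-1 and RNU1-2 both had 0.23. Single genes are therefore given as values without a test, and the part of this division in their differences was not tested.

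RNU1-3 was the gene that took the counts of IgG medium libraries. It had 246, 2.69 and 18.1 CPM there, which was 100%, 99.8% and 100% of U1. In FLAG medium RNU1-3 had 11.98, 6.16 and 1.72 CPM. In IgG IL-17 it had 187, 274 and 258 CPM. In FLAG IL-17 it had 1271, 2298 and 1098 CPM. Among the 4 genes, RNU1-3 alone had all FLAG IL-17 libraries above all IgG IL-17 libraries. The ratio of means was 6.497, and the groups stayed apart in TPM and under TMM, RLE and upper-quartile scaling. The background of features with FLAG entirely above IgG in IL-17 was 3.57%. In medium the RNU1-3 values of FLAG and IgG overlapped, and the FLAG to IgG ratio of means was 0.0745. The share of U1 assigned to RNU1-3 was 66.2%, 32.3% and 35.8% in FLAG IL-17 and 39.4%, 8.08% and 18.3% in IgG IL-17, so these shares overlapped.

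RNU1-4 held the largest share of U1 in 5 of the 6 IL-17 libraries, the exception being FLAG IL-17 replicate 1 (28.3%). In IgG medium RNU1-4 had 0, 0.01 and 0 estimated counts in replicates 1, 2 and 3. In FLAG medium it had 11.98, 3.28 and 1016 CPM. The U1 excess of FLAG medium replicate 3 was thus assigned almost wholly to RNU1-4, 99.8% of U1, while RNU1-3 had 0.169% there. For RNU1-4 all FLAG medium libraries lay above all IgG medium libraries, in CPM, in TPM and under each scaling. In CPM this held for 4.86% of all other tested features. Each IgG medium value of RNU1-4 was under 3 counts. In IgG medium replicate 1 that floor is 4.02 CPM, above the 3.28 CPM of FLAG medium replicate 2. The IgG medium values also entered the contrast from which RNU1-4 was proposed, so nothing is read from this separation. RNU1-1 and RNU1-2 also separated in medium, but all their medium values were under 3 counts. In IgG IL-17 RNU1-4 had 288, 2347 and 833 CPM. In FLAG IL-17 it had 542, 3638 and 1766 CPM, which overlapped FLAG medium.

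**Figure D3:**
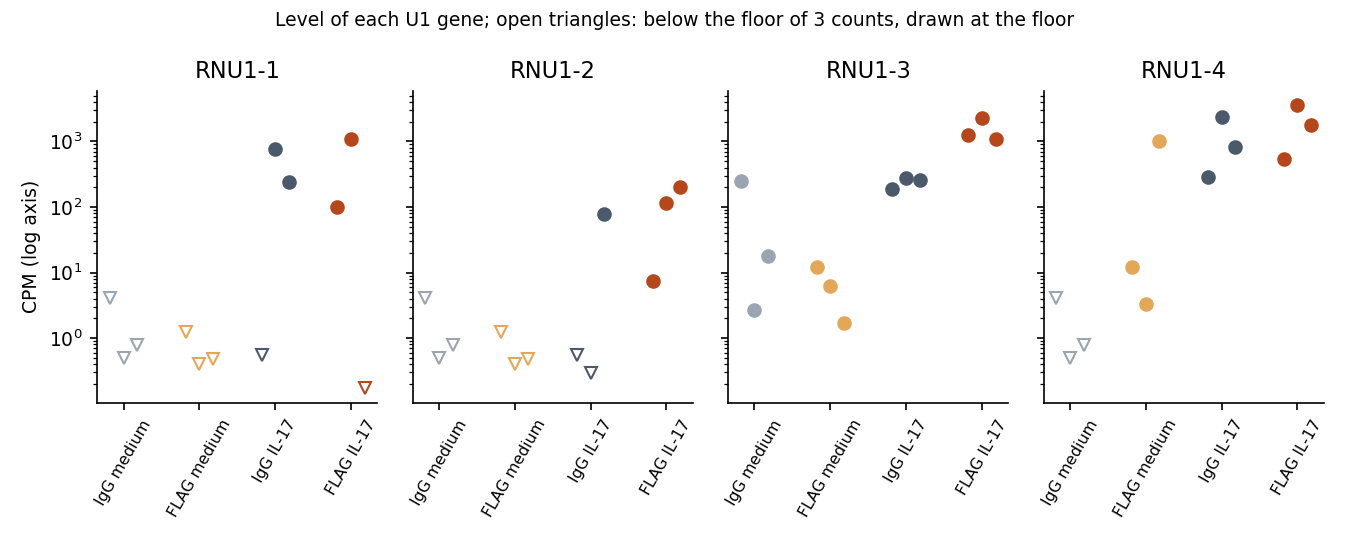
Level of each U1 gene in CPM on a log axis, by group and library (left to right, replicates 1, 2 and 3); open triangles are values below the floor of 3 counts, drawn at that floor. RNU1-3 alone is above the floor in every library, and RNU1-1 and RNU1-2 are below it in all medium libraries.

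RNU1-1 and RNU1-2 received counts with IL-17 only in some libraries. In IgG IL-17, RNU1-1 had 0.253, 769 and 239 CPM. In FLAG IL-17, RNU1-1 had 98.3, 1074 and 0.138 CPM. The last value and its FLAG medium values, 0.016 to 0.193 CPM, were all under the floor of 3 counts. These groups overlapped in CPM and TPM but not under TMM, RLE and upper-quartile scaling. Values under the floor decide that separation, and the members were proposed from this contrast, so nothing is read from it. RNU1-2 had 0.222, 0.020 and 77.1 CPM in IgG IL-17. In FLAG IL-17, RNU1-2 had 7.42, 114 and 203 CPM. The 2 genes did not follow each other: FLAG IL-17 replicate 3 gave 2.44 estimated counts to RNU1-1 and 3582.94 to RNU1-2. IgG IL-17 replicate 2 gave 7947.56 to RNU1-1 and 0.21 to RNU1-2. Over all 12 libraries neither gene was the highest of the 4 in any.

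**Figure D4:**
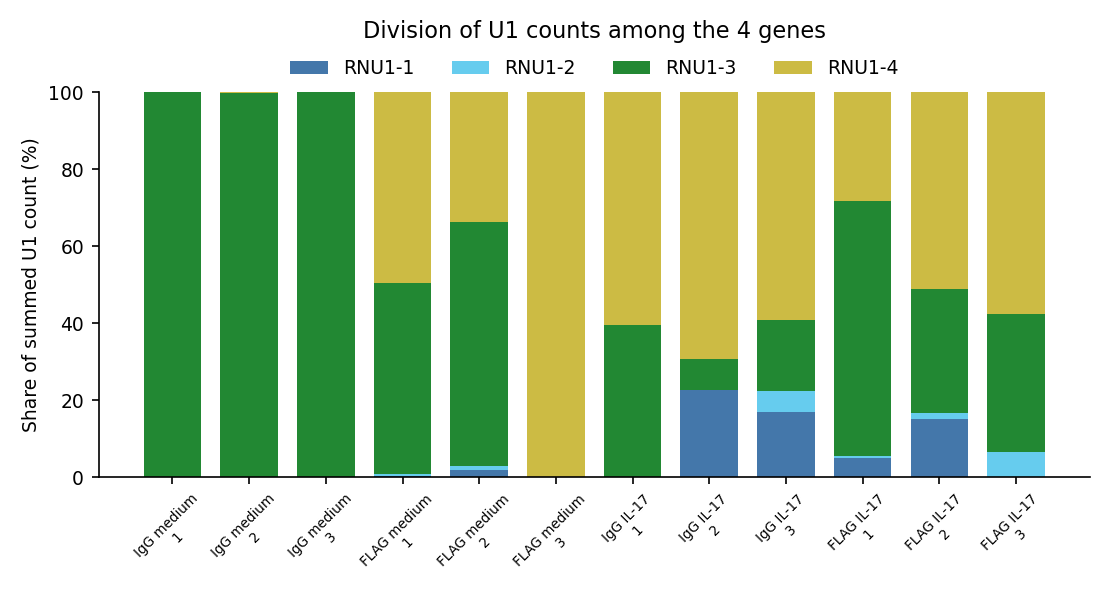
Share of the summed U1 count (percent) assigned to each of the 4 genes in each library. RNU1-3 fills the IgG medium bars, RNU1-4 fills FLAG medium replicate 3 at 99.8%, and RNU1-1 and RNU1-2 together reach 22.7% at most in the IL-17 libraries.

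The deposited TPM values put U1 at other levels. TPM divides a count by effective length, the number of positions a fragment could start from, which is small for an RNA of U1's size. Summed U1 came to 819, 79.1 and 275 TPM in IgG medium and to 267, 210 and 8998 TPM in FLAG medium. In IgG IL-17 it came to 3148, 11310 and 3689 TPM, and in FLAG IL-17 to 13503, 30525 and 9076 TPM. The ratio of TPM to CPM was not constant: it ran from 3.33 to 29.3 in medium and from 2.62 to 7.03 with IL-17. As a result the ratio of IL-17 to medium means in FLAG was 5.61 in TPM and 11.5 in CPM. In IgG it was 15.5 in TPM and 19.8 in CPM. The order of the 4 group means was the same in both units, but the TPM medians of the medium groups had the opposite order, 275 in IgG and 267 in FLAG.

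**Figure D5:**
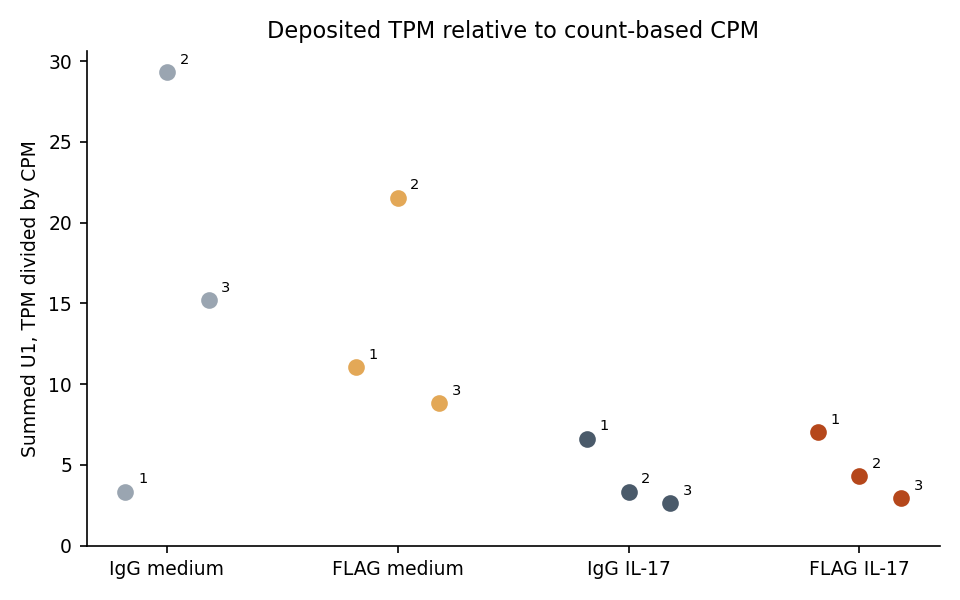
Summed U1 in deposited TPM divided by summed U1 in CPM, for each library (points, numbered by replicate) in the 4 groups. The ratio is highest in IgG medium replicate 2, at 29.3, and lowest in IgG IL-17 replicate 3, at 2.62.

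Features that followed U1 most closely were sought over the 12 libraries, by Pearson correlation of log2(CPM + 1) with summed U1. The closest was ENSG00000267257.1 (r = 0.91), and the next was ENSG00000205403.14 (r = 0.90). The median over other tested features was -0.23. ENSG00000267257.1 had 0 to 13.3 CPM in medium libraries, highest in FLAG medium replicate 3, and 16.8 to 28.7 CPM with IL-17. ENSG00000205403.14 was at 0 in every medium library but FLAG medium replicate 3, where it had 3.64 CPM, and had 1.48 to 5.64 CPM with IL-17. Both were picked for following U1, so nothing is read from the high value they share with it in FLAG medium replicate 3. In IgG medium replicate 1, where U1 was also high, they had 1.41 and 0 CPM. The points share library depth and treatment, and the correlations are descriptions.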

How the data were processed

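The authors deposited estimated counts per Ensembl feature for 12 RNA immunoprecipitation libraries, and a table named for FPKM that holds TPM, since each deposited column sums to 1000000. The submitters' processing notes list R 4.2.0, DESeq2 1.36.0, RSEM 1.3.1 and STAR 2.7.9 with the build GRCh38; their roles, and whether counting used strand, were not given in the sources here. Of the counts above 0, 18.0% were not whole. The 4 U1 rows were summed into 1 row, the table was rounded, filtered (filterByExpr, minimum count 10), scaled by TMM and fitted over all 12 libraries in edgeR 4.0.16 (quasi-likelihood test, R 4.3.3), with Benjamini-Hochberg adjustment over 24037 features (threshold 0.05). The common dispersion was 0.952. Because 1 model covered all groups, standard errors pool their spread. Exact permutations used log2(CPM + 1), with CPM from unscaled library totals. Alternatives were other scalings and filters, DESeq2 1.42.0, limma 3.58.1 on log2 TPM with a pseudocount of 1 or 0.1, only the groups compared, a replicate block and leaving out libraries; removing the 4 libraries that stood apart was added after seeing the data. Members and lists were chosen with earlier results of these data known. Named features were the 4 members and the 2 other features most correlated with their sum. With a floor of 3 counts, a summed value of 0 would leave room for a U1 level of 4.02 CPM at the lowest depth and 0.169 CPM at the highest. A single gene at 0 can leave room for more, because reads were divided among copies.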

Additional observations from a re-analysis of the deposited data

How the results depend on the processing

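No alternative gave summed U1 an adjusted p under 0.05 for FLAG over IgG, and the lowest was 0.0669 in edgeR, for the mean with no filter. The unadjusted p depended strongly on the filter. For the mean, the unadjusted edgeR p was 0.15 in the main fit and 5.8e-05 with no filter. The log2 differences were 1.39 and 1.43. With no filter the unadjusted edgeR p was 0.0032 in medium and 0.0063 in IL-17. In IL-17 the log2 difference kept its sign in all settings, from 0.84 to 1.61 over 11 settings and from 0.59 to 2.04 with single libraries left out. In medium it ran from -3.18 to 5.18 with single libraries left out, and the mean from -0.98 to 3.27; both fell below 0 without FLAG medium replicate 3. With the replicate block the medium value was -0.066, the IL-17 value 1.40 and the mean 0.67. Deviations of same-numbered IgG and FLAG libraries correlated at 0.058, -0.11 and 0.28 in medium and at 0.16, -0.076 and 0.35 in IL-17. Differently numbered libraries correlated at -0.36 to 0.31 in medium and at -0.41 to 0.32 in IL-17. These ranges overlap, so the correlations do not settle whether replicate numbers pair the libraries. Differences between IL-17 and medium kept their sign: in IgG they ran from 2.94 to 7.68 with single libraries left out and reached 7.48 without the 4 libraries that stood apart, and in FLAG they ran from 3.03 to 8.15. The cause of these moves was not tested, beyond the removal of libraries.

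Features called (0 in each comparison) numbered 44 in medium, 2 in IL-17 and 38 for the mean with no filter. By DESeq2 they numbered 137, 9 and 32 of 23304. Without the 4 libraries that stood apart they numbered 1235, 4 and 1057. The replicate block gave 2 in medium. Leaving out IgG medium replicate 2 gave 9 in medium and 2 for the mean, leaving out IgG medium replicate 3 gave 1 in medium, and leaving out IgG IL-17 replicate 3 gave 1 in IL-17 and 1 for the mean. Adding U1 variants to the sum was not run, because features were not paired with symbols, and the mean has no fit of fewer groups. Below 4.02 CPM, summed U1 was not detectable in the shallowest library.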
